A study of Mus musculus with 3 samples.

Results

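The dual-specificity MAP kinase phosphatases examined here are 9 genes taken by symbol from the GENCODE M1 annotation of the mouse mm9 genome, Dusp1, Dusp2, Dusp4, Dusp5, Dusp6, Dusp8, Dusp10, Dusp14 and Dusp16, out of 22208 protein-coding genes on chromosomes 1 to 19 and X. Ser5-phosphorylated Pol_II, the form of RNA polymerase II that carries a phosphate on serine 5 of its C-terminal repeats and is found mostly at and just past promoters, was measured over them by ChIP-Seq in primary bone marrow-derived macrophages. The cells came from female Fvb mice (Fvb/Hsd in the study's methods) and were used on the seventh day of differentiation in L929-conditioned medium. There was 1 library from untreated cells, 1 from cells given 10 ng/ml LPS (lipopolysaccharide from Gram-negative bacteria) for 2 h, and 1 of input DNA, the chromatin of untreated cells sequenced as it was, with no antibody step. Mouse age, the number of mice and any pooling are not given in the sources used here.

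MAP kinases (ERK, JNK and p38) are switched on by phosphorylation of a threonine and a tyrosine in their activation loop, and these phosphatases remove both phosphates and switch the kinases off. In macrophages LPS activates all 3 kinase families, and several of the phosphatase genes are textbook feedback genes that are themselves transcribed in response to MAP kinase activity. The family is usually divided into inducible nuclear enzymes (Dusp1, Dusp2, Dusp4, Dusp5), cytoplasmic enzymes selective for ERK (Dusp6, with Dusp7 and Dusp9) and enzymes selective for JNK and p38 (Dusp8, Dusp10, Dusp16). Dusp14 is a small enzyme without the kinase-docking domain of the others.

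The paralogs went in opposite directions. Ser5 at the Dusp6 promoter was 881 tags in untreated cells and 252 after LPS, while at the Dusp2 promoter it was 120 and 325. Dusp8 was higher after LPS on few tags, Dusp1 and Dusp16 were higher by the 2-fold rule past +1 kb and short of it at the promoter, Dusp4 was lower by less than 2-fold, the Ser5 at Dusp10 was nearly the same in both libraries, and Dusp14 carried no Ser5 above input in either.

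Tags were counted at their 5′ ends and are given as TPM, the count scaled to the tags of the same library on chromosomes 1 to 19 and X and multiplied by 1000000. The 3 libraries held 7616771 (untreated), 6249819 (LPS) and 7533308 (input) such tags. Each condition had 1 library, so no difference has a replicate check and no test was possible. Every interval below is a 95% interval for counting error only, and repeated tags from PCR are not independent molecules. A gene was called higher or lower when its TPM differed at least 2-fold between the libraries and at least 20 tags fell in the region over both. As a check of the labels, 8 of 8 LPS-response genes (Tnf, Il1b, Il6, Ccl5, Cxcl10, Ptgs2, Nfkbia and Irg1) were higher in the LPS library, with a median ratio over the gene span of 38.6. All 9 of the macrophage markers chosen (Csf1r, Emr1, Itgam, Cd68, Lyz2, Sfpi1, Mpeg1, Cd14, Fcgr1) exceeded 2 times input in untreated cells, and 8 of 9 did after LPS. Their mean density was 8.23, 8.98 and 0.725 TPM per kb in untreated Ser5, LPS Ser5 and input, although single markers went both ways, with 4 of 9 called lower after LPS over the span (Itgam, Cd68, Lyz2 and Csf1r), 2 called higher (Emr1 and Cd14) and 3 neither. Mean densities of B cell, fibroblast, endothelial, dendritic, and neutrophil and progenitor markers lay between 0.152 and 0.403 TPM per kb in the Ser5 libraries, below input in each list. Single markers departed from this. Camp had 29 LPS tags over its span against 14 in input. Near the start Pecam1 had 167 and 150 Ser5 tags against 8, and Kdr 99 and 64 against 19. T cell markers had means of 1.16 and 1.14 against 0.594 in input. Over the span Cd3d and Lck were above 2 times input and Cd3e and Cd3g were not. Near their starts Cd3d had 2 and 2 Ser5 tags against 18 in input, and Lck 1 and 3 against 8.

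Across all coding genes the LPS library was slightly lower. The median ratio of LPS to untreated was 0.873 over the gene span (n = 16136 genes with at least 20 tags), 0.829 within 1 kb of the start (n = 11362) and 0.886 past +1 kb (n = 15286). For the phosphatases the medians were 1.17 (n = 9), 1.37 (n = 8) and 1.75 (n = 9). Those over the span and past +1 kb are the values of Dusp5, whose body lay at 0.538 and 0.939 times input in untreated and LPS. The median near the start leaves out Dusp10. It lies between Dusp14, with 10 tags in each Ser5 library and 17 in input, and Dusp1. Scaling to the tags outside peaks in place of all tags multiplies every ratio of LPS to untreated by 1.08. Ratios of Ser5 to input rise more, since 49.9% of untreated and 46.3% of LPS tags lay outside peaks, against 95.5% of input tags. Every comparison with input uses all tags unless stated, so a density at or below input holds for that scale. Comparisons between members, given below as a ratio of ratios, do not depend on the choice of scale.

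Promoters are shown first for Dusp2 and Dusp6, the members with the largest and the smallest ratio, for Dusp1 and Dusp16, which passed the rule past +1 kb, and for Dusp5, where promoter and gene body differed most. That of Dusp8 lies inside the GENCODE gene and is not printed. RefSeq promoter sequences of build GRCm38.p6 matched 8 of the 9 members, all but Dusp4. Each of the 8 upstream stretches of 250 bases occurred at exactly 1 place in the chromosome of its gene in mm9, whose coordinates are given. They are printed 5′ to 3′ on the strand of the gene and end at the RefSeq start, or at the GENCODE start where that lies further upstream. Capitals mark matches to any of 6 patterns searched on both strands. These were the cAMP response element (CRE) TGACGTCA, its half-site TGACG, the AP-1 site TGANTCA, the ETS site CCGGAAG, the kappaB consensus and the CArG box bound by serum response factor. A full CRE contains the half-site on each strand.

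Dusp1 (chr17:26645465-26645667, minus strand): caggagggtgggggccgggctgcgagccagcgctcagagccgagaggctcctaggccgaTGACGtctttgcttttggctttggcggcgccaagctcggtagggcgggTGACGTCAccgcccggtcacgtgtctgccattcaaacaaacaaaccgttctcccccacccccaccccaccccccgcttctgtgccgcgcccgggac
Dusp2 (chr2:127161645-127161894, plus strand): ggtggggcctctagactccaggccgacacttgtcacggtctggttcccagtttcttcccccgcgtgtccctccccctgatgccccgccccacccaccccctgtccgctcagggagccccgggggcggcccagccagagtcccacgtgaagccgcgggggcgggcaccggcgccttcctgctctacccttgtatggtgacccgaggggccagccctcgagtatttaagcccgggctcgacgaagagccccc
Dusp5 (chr19:53603385-53603598, plus strand): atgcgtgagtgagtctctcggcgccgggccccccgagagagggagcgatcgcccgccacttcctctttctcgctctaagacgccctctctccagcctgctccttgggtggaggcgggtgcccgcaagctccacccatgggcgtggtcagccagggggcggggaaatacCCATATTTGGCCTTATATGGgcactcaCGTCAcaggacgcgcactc
Dusp6 (chr10:98725615-98725864, plus strand): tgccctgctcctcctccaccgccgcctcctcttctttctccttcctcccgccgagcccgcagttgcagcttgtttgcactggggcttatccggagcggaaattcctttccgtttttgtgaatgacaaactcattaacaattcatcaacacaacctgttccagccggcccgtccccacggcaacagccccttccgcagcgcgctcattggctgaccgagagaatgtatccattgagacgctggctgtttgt
Dusp16 (chr6:134742647-134742896, minus strand): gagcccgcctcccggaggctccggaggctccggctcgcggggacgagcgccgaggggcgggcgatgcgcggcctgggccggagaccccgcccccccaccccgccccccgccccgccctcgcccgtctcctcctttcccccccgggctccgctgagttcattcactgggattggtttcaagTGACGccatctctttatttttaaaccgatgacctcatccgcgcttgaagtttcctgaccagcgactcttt

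Dusp1 held 1 full CRE at −143 to −136 from its RefSeq start and a separate half-site at −191 to −187. Dusp8, whose RefSeq start lies 559 bp inside the GENCODE gene, held 2 full CREs at −107 to −100 and −63 to −56. Of 32619 RefSeq promoters on the same chromosomes, 1.56% hold a full CRE in this window. The half-site alone was found in Dusp5 and Dusp16, and 17.9% of all promoters hold it. Dusp5 held 2 adjoining CArG boxes at −82 to −73 and −72 to −63, a pattern present in 1.48% of promoters. The promoters of Dusp2, Dusp6, Dusp10 and Dusp14 matched none of the 6 patterns. None of the 8 matched the kappaB consensus, AP-1 or ETS patterns, which 3.92%, 6.78% and 6.96% of all promoters hold. A match describes letters in the window and shows no binding, and the lack of one says only that these letters are not there. Dusp1 and Dusp8, each with a full CRE, had more Ser5 after LPS, as did Dusp16, with a half-site, and Dusp2, with no match. Dusp6, with no match, had less, and so had Dusp5 near its start, with a half-site and CArG boxes. Whether any motif bears on these differences was not tested.

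**Figure D1:**
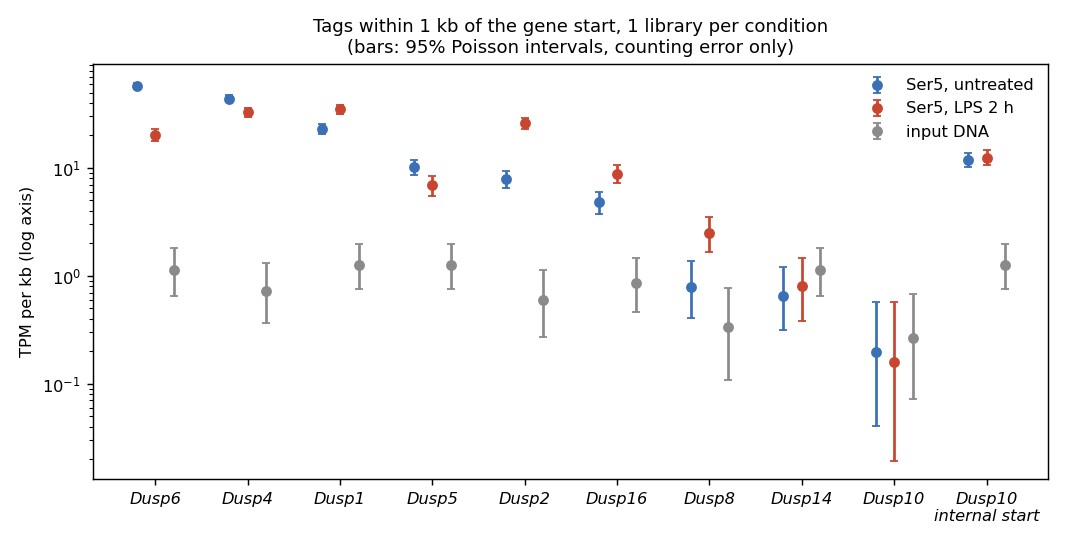
Tags within 1 kb of the gene start as TPM per kb on a log axis, for each of the 9 genes and for the internal start of Dusp10, in untreated Ser5 (blue), LPS Ser5 (red) and input DNA (grey). Points are single libraries and bars are 95% Poisson intervals for counting error; Dusp6 is highest before LPS at 57.8, Dusp1 is highest after LPS at 35.0, and Dusp14 and the 5′ end of Dusp10 lie at or below input.

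Within 1 kb of the start, 2 of the 8 members with at least 20 tags were higher after LPS (Dusp2 and Dusp8) and 1 was lower (Dusp6), where 4.37% of all coding genes tested were higher and 13.1% lower. Over the whole gene span 3 of 9 were higher (Dusp2, Dusp8 and Dusp16) and 1 of 9 lower (Dusp6), where the shares of coding genes were 5.27% and 10.6%. Past +1 kb, a region that leaves out the promoter, 4 of 9 were higher (Dusp1, Dusp2, Dusp8 and Dusp16) and 1 of 9 lower (Dusp6), against 6.07% and 11.4% of coding genes. Of the higher ones, Dusp8 was at input density there after LPS, at 1.05 times (0.669 to 1.64). The spans overlap the other regions, so the counts are not separate evidence. The share of members called higher was thus above the background share in each region, and the share called lower was close to it, with no test of either.

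**Figure D2:**
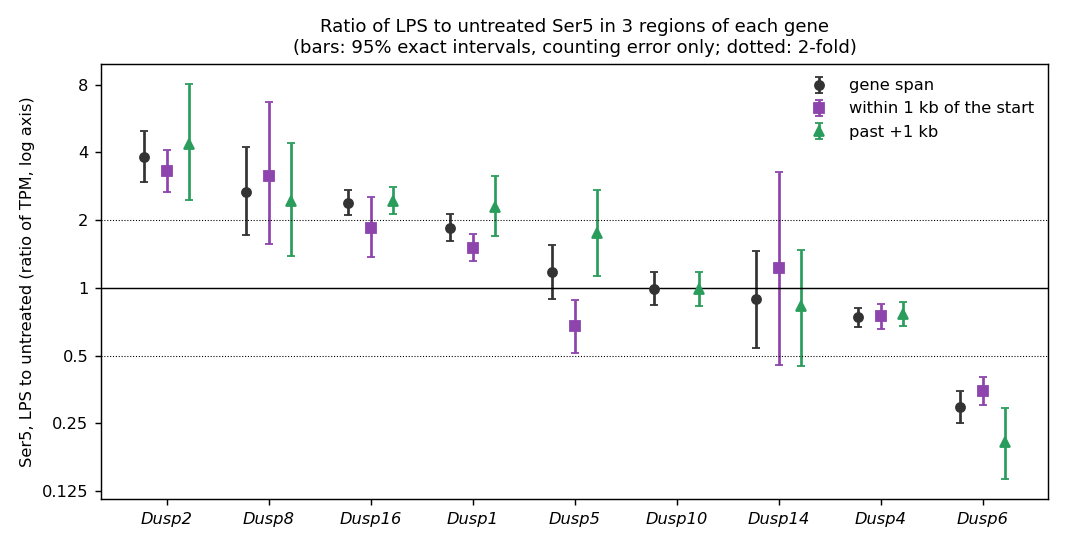
Ratio of LPS to untreated Ser5 (TPM over TPM, log axis) over the gene span (black circles), within 1 kb of the start (purple squares) and past +1 kb (green triangles), with 95% exact intervals for counting error and dotted lines at 2-fold. All drawn regions of Dusp2, Dusp8, Dusp16 and Dusp1 lie above 1 and all of Dusp4 and Dusp6 below 1, while the regions of Dusp5 lie on both sides; the start window of Dusp10 had 5 tags and is not drawn.

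Dusp1, the nuclear phosphatase best known for turning off p38 and JNK in LPS-treated macrophages, lies at chr17:26642535-26645464 on the minus strand (ENSMUSG00000024190.6). It had 353 tags within 1 kb of its start in untreated cells, 438 after LPS and 19 in input, or 23.2, 35.0 and 1.26 TPM per kb. The gene was thus already 18.4 times above input before LPS, and its ratio near the start was 1.51 (1.31 to 1.74), short of the 2-fold rule. Past +1 kb the tags were 68, 128 and 15, a ratio of 2.29 (1.70 to 3.13), past the rule. The gene body therefore differed more than the promoter, by a ratio of ratios of 1.52 (1.08 to 2.14). Over the span the tags were 323, 491 and 23, a ratio of 1.85 (1.61 to 2.14), which placed Dusp1 at percentile 93.8 of coding genes.

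Within 1 kb of the Dusp1 start, the excess lay on the downstream side. In the first kb downstream the tags were 255, 363 and 8 in untreated, LPS and input, a ratio of 1.73 (1.47 to 2.04). In the first kb upstream they were 98, 75 and 11, a ratio of 0.933 (0.681 to 1.27). The upstream side changed less than the downstream side, with a ratio of ratios of 0.538 (0.377 to 0.767). Further out, from 1 to 6 kb upstream, the tags were 29, 49 and 47, a ratio of 2.06 (1.28 to 3.38) that passed the rule, at 0.610 times input density before LPS and 1.26 times after it. In the 5 kb past the annotated end the tags were 102, 156 and 52, a ratio of 1.86 (1.44 to 2.42). In peaks, 1 block of 4319 bp covered 100% of the gene after LPS, where 2 peaks of 1471 and 959 bp had covered 55.6% of it before.

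Not every peak around Dusp1 was higher after LPS. A peak of the untreated list 10.9 kb downstream of the start held 71 tags before LPS and 19 after it, with 12 in input, a ratio of 0.326 (0.186 to 0.547). Another 6.37 kb upstream held 26 and 7 tags, with 7 in input, a ratio of 0.328 (0.120 to 0.776). A peak of the LPS list 3.88 kb from the start, past the annotated end, held 10 and 46 tags, with 12 in input, a ratio of 5.61 (2.79 to 12.5). Each of these 3 peaks was called in 1 library only, so its direction is in part set by the list it came from. None of them lies in an annotated gene.

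Dusp2, a nuclear phosphatase described first in activated lymphocytes, lies at chr2:127161895-127164112 on the plus strand (ENSMUSG00000027368.6) and had the largest ratio of the 9 genes in each of the 3 regions, though the intervals of Dusp8 held its values. Within 1 kb of its start it had 120 tags in untreated cells, 325 after LPS and 9 in input, or 7.87, 26.0 and 0.597 TPM per kb. The ratio was 3.30 (2.67 to 4.10), at percentile 98.3 of coding genes. Over the span the tags were 80, 250 and 15, a ratio of 3.81 (2.95 to 4.96). Past +1 kb they were 16, 57 and 9, a ratio of 4.34 (2.46 to 8.10).

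The Ser5 of Dusp2 ran past the end of the gene after LPS. In the 5 kb past the end the tags were 27, 89 and 31 in untreated, LPS and input, so that only the LPS library stood above input. The peaks covered 22.3% of the gene before LPS and 99.5% after it. The next gene on the same strand, Astl, which encodes an egg metalloprotease, begins 263 bp past the end of Dusp2 and overlaps that stretch. It was called higher too, with 48, 97 and 74 tags and a ratio of 2.46 (1.73 to 3.56), and the tags of the 2 genes cannot be told apart near their border. Upstream, from 1 to 6 kb before the start, there were 10, 8 and 21 tags, below input in both Ser5 libraries.

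Dusp4, a nuclear phosphatase for ERK and JNK, lies at chr8:35870351-35882948 on the plus strand (ENSMUSG00000031530.6). Within 1 kb of its start it had 668 tags in untreated cells, 409 after LPS and 11 in input, or 43.8, 32.7 and 0.730 TPM per kb. The ratio was 0.746 (0.658 to 0.845). It was 0.740 (0.671 to 0.815) over the span and 0.766 (0.679 to 0.863) past +1 kb, so the whole gene differed by about the same amount and none of it passed the 2-fold rule. These values lie at percentiles 38.9, 33.0 and 36.1 of coding genes, close to the middle. Ser5 peaks lined the gene in both libraries, with 15 on the span covering 81.3% of it before LPS and 10 covering 60.6% after. The lower value of Dusp4 against the higher value of Dusp1 amounted to a ratio of ratios of 2.03 (1.67 to 2.45) at the promoters and 2.50 (2.11 to 2.98) over the spans.

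Dusp5, the nuclear phosphatase specific for ERK, lies at chr19:53603599-53616921 on the plus strand (ENSMUSG00000034765.6). Its Ser5 was held almost wholly at the promoter, with 155 tags in untreated cells, 86 after LPS and 19 in input within 1 kb of the start, or 10.2, 6.88 and 1.26 TPM per kb. The ratio there was 0.676 (0.513 to 0.886). Past +1 kb the tags were 37, 53 and 68, below input density before LPS and at it afterwards, with a ratio of 1.75 (1.13 to 2.73). The density at the start was 25.8 times that past +1 kb before LPS and 9.99 times after it, against 1.72 times in input. Promoter and body differed in direction, with a ratio of ratios of 2.57 (1.53 to 4.38). With all tags as the scale, however, Ser5 above input was not detectable in the body in either library. Most of the lower promoter value lay upstream of the start, at 82 and 33 tags in the first kb (0.490, 0.317 to 0.743), with 73 and 52 in the first kb downstream (0.868, 0.596 to 1.26).

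Dusp6, the cytoplasmic phosphatase specific for ERK and a classical readout of ERK activity, lies at chr10:98725865-98730122 on the plus strand (ENSMUSG00000019960.6) and had the highest Ser5 density of the 9 genes near the start and over the span in untreated cells, although Dusp4, a longer gene, had more tags over its span. Within 1 kb of its start it had 881 tags before LPS, 252 after LPS and 17 in input, or 57.8, 20.2 and 1.13 TPM per kb. The ratio was 0.349 (0.302 to 0.401), at percentile 5.03 of coding genes. With 1 tag per position and strand the ratio was 0.457, nearer to 1 but still past the rule. After LPS the promoter remained 17.9 times above input.

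The lower Ser5 at Dusp6 was more marked in the gene body. Past +1 kb the tags were 219, 37 and 27 in untreated, LPS and input, or 8.83, 1.82 and 1.10 TPM per kb. The ratio was 0.206 (0.141 to 0.293), at percentile 0.890 of coding genes, and the density after LPS was 1.65 times input. The body differed more than the promoter, with a ratio of ratios of 0.591 (0.394 to 0.867). The density at the start was 6.55 times (5.64 to 7.63) that past +1 kb before LPS and 11.1 times (7.83 to 16.1) after it. In the 5 kb past the end the tags were 315, 69 and 60, a ratio of 0.267 (0.203 to 0.347), again close to input after LPS.

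Dusp6 stood out for Ser5 outside the gene. From 1 to 6 kb upstream of the start it had 438 tags before LPS, 180 after LPS and 36 in input, a ratio of 0.501 (0.419 to 0.597), just short of the 2-fold rule. This upstream stretch kept a larger share of its untreated Ser5 than the gene span did, with a ratio of ratios of 1.69 (1.33 to 2.16). Its density after LPS was still lower, at 5.76 TPM per kb against 6.95 over the span. The profile shows a second maximum there, with 161, 75 and 2 tags in the bin of 250 bp that begins 1500 bp upstream, against 413, 116 and 1 in the first 250 bp of the gene. In the untreated list a single peak of 5721 bp (chr10:98723609-98729329) took in both maxima, and after LPS the list held 3 separate peaks there, the longest of 1281 bp and centred 1.45 kb upstream. A further peak of 2093 bp lay 5.52 kb from the start, past the annotated end, with 261, 51 and 20 tags and a ratio of 0.238 (0.173 to 0.323).

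**Figure D3:**
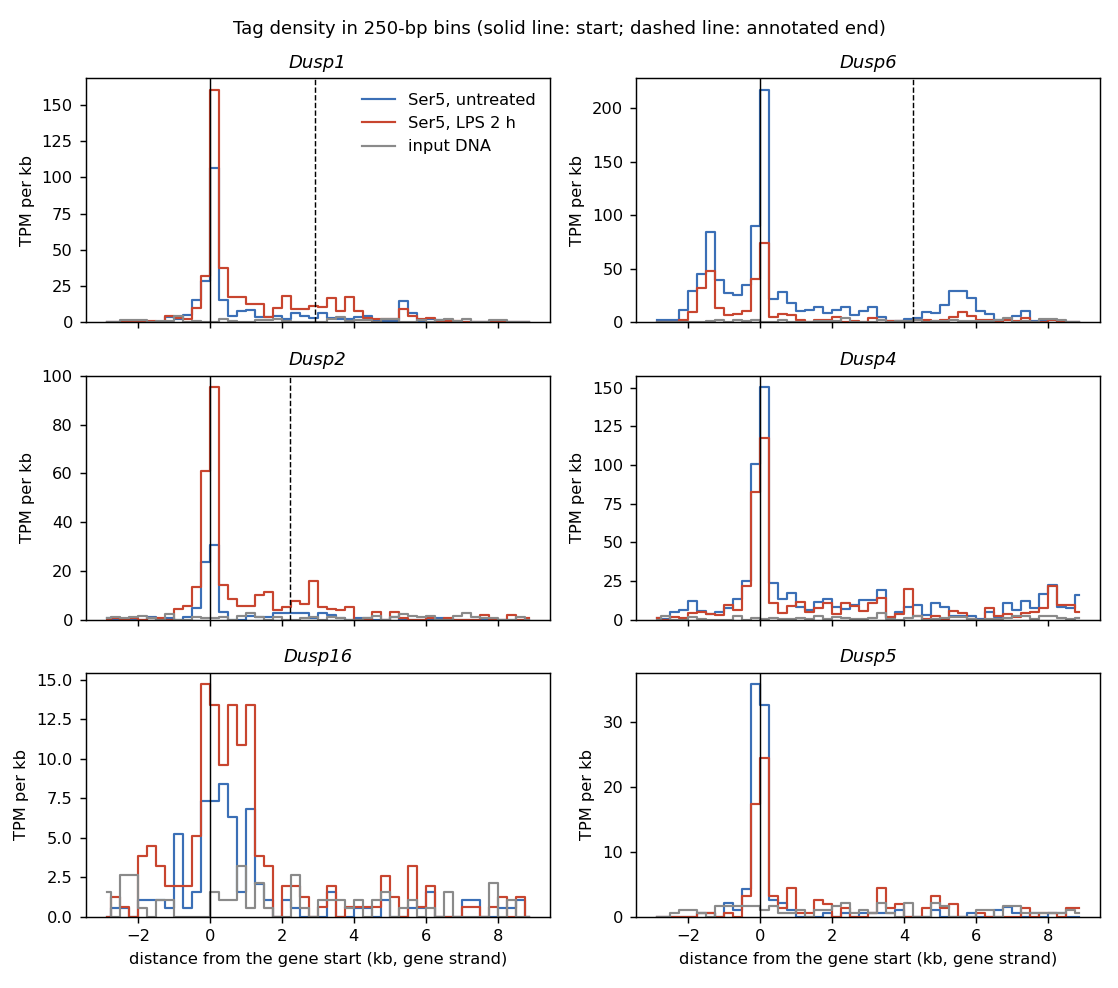
Tag density in TPM per kb (linear axes, different for each gene) in bins of 250 bp from 3 kb upstream to 9 kb downstream of the start of 6 genes, read along the gene strand, for untreated Ser5 (blue), LPS Ser5 (red) and input DNA (grey). Solid lines mark the start and dashed lines the annotated end where it falls in the range; Dusp1 and Dusp2 have more Ser5 after LPS from the start to past the end, Dusp6 has less at the start and at a second maximum upstream, and Dusp5 has Ser5 only near its start.

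The other cytoplasmic ERK phosphatases give a comparison for Dusp6. Dusp7 had 260 tags over its span in untreated cells, 75 after LPS and 41 in input, a ratio of 0.352 (0.268 to 0.456), called lower. The ratio of ratios of Dusp7 to Dusp6 was 1.19 (0.864 to 1.62) over the span, so they did not differ beyond counting error there. Near the start Dusp7 had 261, 126 and 15 tags, a ratio of 0.588 (0.472 to 0.730), and here it was higher than Dusp6 by a ratio of ratios of 1.69 (1.30 to 2.19). Dusp7 shared with Dusp6 the larger difference in the body, where its ratio was 0.301 (0.205 to 0.431). Dusp9 had 13, 10 and 10 tags over its span, close to input, and 10, 0 and 2 near its start, too few to be tested.

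Dusp16, a JNK and p38 phosphatase that shuttles between nucleus and cytoplasm, lies at chr6:134665488-134742643 on the minus strand (ENSMUSG00000030203.10) and is the longest of the 9 genes. Over its span it had 378 tags in untreated cells, 742 after LPS and 412 in input, or 0.643, 1.54 and 0.709 TPM per kb. With all tags as the scale, the gene as a whole was at input density before LPS and 2.17 times above input after it. Its ratio of LPS to untreated was 2.39 (2.11 to 2.71). Near the start the tags were 73, 111 and 13, a ratio of 1.85 (1.37 to 2.53), short of the rule. With the start of 2 further transcripts, 150 bp downstream, it was 2.04 (1.51 to 2.78), so the call at the promoter of Dusp16 depends on which start is used.

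The additional Ser5 over Dusp16 was spread thinly along the gene. The LPS list held 9 peaks in its body beyond the promoter, each with 8 to 21 tags in the LPS library and 0 to 8 in the untreated one, and scores of 50.4 to 74.9 close to the calling limit of 50. The untreated list held none there, so the direction of these peaks is in part set by the list they came from. They were not even along the gene. Single peaks lay 17.7, 40.9, 47.6 and 50.6 kb from the start, and the rest between 69.5 and 76.1 kb, near the 3′ end. The peak at 72.1 kb had 21 LPS tags against 12 in input. In the 5 kb past the end the tags were 47, 98 and 20, a ratio of 2.54 (1.78 to 3.68). From 1 to 6 kb upstream they were 22, 62 and 34, a ratio of 3.43 (2.08 to 5.87), or 0.640 times input density before LPS and 2.20 times after it.

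Dusp8, a JNK and p38 phosphatase known mainly from brain and heart, lies at chr7:149265395-149281748 on the minus strand (ENSMUSG00000037887.4). It met the rule on few tags. Near the start it had 12 tags in untreated cells, 31 after LPS and 5 in input, or 0.787, 2.48 and 0.332 TPM per kb, a ratio of 3.15 (1.57 to 6.73). With a minimum of 50 tags it would not have been tested there. Over the span the tags were 31, 68 and 50, a ratio of 2.67 (1.72 to 4.23), although the density was below input before LPS and 1.64 times input after it. Past +1 kb they were 20, 40 and 46, a ratio of 2.44 (1.39 to 4.40). That was 0.430 times input density before LPS and 1.05 times after it. A small intronic peak, about 500 bp inside the gene and close to the RefSeq start, had a score of 59.2 before LPS and 220.7 after it. A second, shorter record of the same symbol lies within the gene and was not counted separately.

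Dusp10, a JNK and p38 phosphatase, lies at chr1:185837181-185899515 on the plus strand (ENSMUSG00000039384.8) and the Ser5 on it sat around an internal start. At the 5′ end of the gene record there were 3 tags in untreated cells, 2 after LPS and 4 in input. At the start of the transcript Dusp10-001, 21079 bp downstream, there were 182, 156 and 19 tags within 1 kb, or 11.9, 12.5 and 1.26 TPM per kb. The ratio there was 1.04 (0.838 to 1.30), so a difference of 2-fold in either direction lies outside the counting interval. Each library had 1 peak at this start, of 1225 bp before LPS and 1362 bp after. The peak also reaches the antisense gene 1700056E22Rik, whose tags cannot be told apart from those of Dusp10, since ChIP tags carry no transcript strand. In untreated cells the fullest bin lay at −750 to −500 bp from the internal start, beside the 5′ end of that gene, with 49, 39 and 2 tags. After LPS it lay at 0 to 250 bp, with 43, 50 and 3. The Ser5 counted at this start is thus not assigned to Dusp10 alone. Over the whole span Dusp10 was at input density in both libraries with all tags as the scale, at 311, 253 and 310 tags.

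Dusp14, the small enzyme without the docking domain, lies at chr11:83861543-83882763 on the minus strand (ENSMUSG00000018648.9). It had 10 tags near its start in untreated cells, 10 after LPS and 17 in input, and 41, 30 and 87 over its span. Neither library had a Ser5 peak on it, and at the other annotated starts the tags in Ser5 stayed between 5 and 13, against 12 to 20 in input. Ser5 was therefore not detectable over Dusp14 at this depth.

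By level in untreated cells the promoters ranked Dusp6, Dusp4, Dusp1, Dusp10 at its internal start, Dusp5, Dusp2, Dusp16, Dusp8 and Dusp14. The intervals of Dusp10 (10.3 to 13.8 TPM per kb) and Dusp5 (8.63 to 11.9), of Dusp5 and Dusp2 (6.53 to 9.41), and of Dusp8 and Dusp14 overlapped, and those of the other neighbours in that order did not. After LPS the order was Dusp1, Dusp4, Dusp2, Dusp6, Dusp10, Dusp16, Dusp5, Dusp8 and Dusp14. There the intervals of Dusp1 (31.8 to 38.5) and Dusp4 (29.6 to 36.0), of Dusp10 (10.6 to 14.6) and Dusp16 (7.30 to 10.7), and of Dusp16 and Dusp5 (5.50 to 8.49) overlapped, and Dusp6 had gone from the first place to the fourth, at 20.2 (17.7 to 22.8), below Dusp2 at 26.0 (23.2 to 29.0). A promoter density here is a level of Ser5 per kb and not an amount of mRNA. That at the internal start of Dusp10 takes in the 5′ end of the antisense gene 1700056E22Rik.

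Seen as shares of all tags in the start windows of the 9 genes, Dusp6 held 38.7% (36.7 to 40.7, Wilson interval) in untreated cells and 15.1% (13.5 to 16.9) after LPS. Dusp1 went from 15.5% (14.1 to 17.1) to 26.3% (24.3 to 28.5) and Dusp2 from 5.27% (4.43 to 6.27) to 19.5% (17.7 to 21.5). Dusp4 held 29.4% and 24.6%. Dusp10 was counted here at the 5′ end of its record, with 3 and 2 tags, so the 182 and 156 at its internal start are left out. The total over the 9 windows was 2275 tags before LPS and 1664 after it, with 114 in input. Its ratio of 0.891 (0.836 to 0.950) became 0.960 (0.900 to 1.02) with scaling to tags outside peaks. The make-up of the family's promoter Ser5 thus differed far more than its sum.

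The contrast of Dusp6 with the members that were higher exceeded counting error. Dusp2 against Dusp6 gave a ratio of ratios of 9.45 (7.31 to 12.3) near the start and 12.8 (9.45 to 17.6) over the span. Dusp1 against Dusp6 gave 4.33 (3.54 to 5.32) and 6.25 (5.03 to 7.80). Dusp16 against Dusp6 gave 5.31 (3.78 to 7.48) and 8.08 (6.57 to 9.96). Members with the same direction also differed in size, with 2.18 (1.68 to 2.83) for Dusp2 against Dusp1 and 2.14 (1.77 to 2.59) for Dusp4 against Dusp6 near the start. These intervals hold for these libraries with duplicate tags kept and carry no spread between cultures. With 1 tag per position and strand the ratio of Dusp6 was 0.457 near the start and 0.390 over the span. Those of Dusp2 were then 2.99 and 3.37, those of Dusp1 1.48 and 1.85, and those of Dusp16 1.96 and 2.48. The contrasts with Dusp6 kept their direction but were smaller, and their intervals were not computed.

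**Figure D4:**
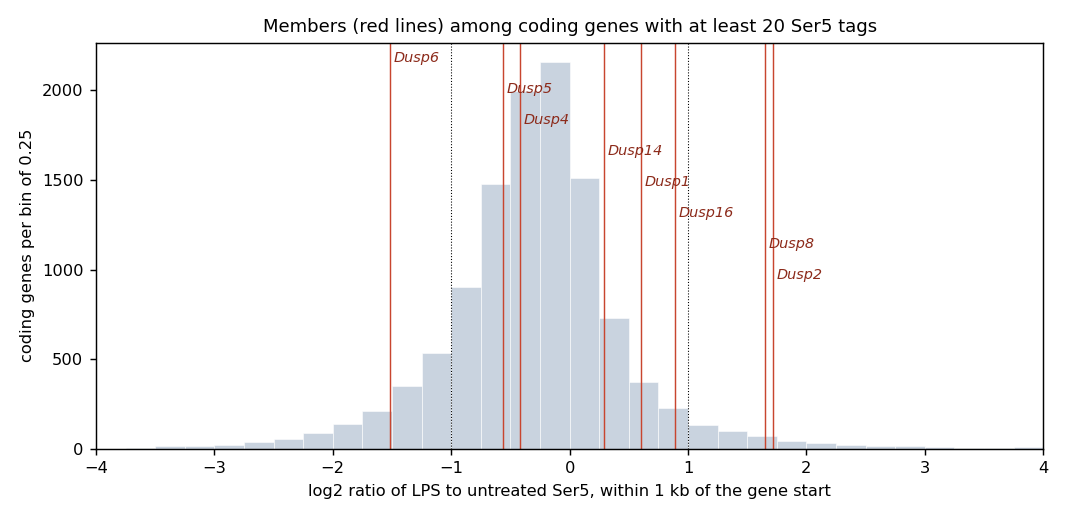
Distribution of the log2 ratio of LPS to untreated Ser5 within 1 kb of the start over the 11362 coding genes with at least 20 tags, in bins of 0.25, with the 8 members that have enough tags as red lines and 2-fold as dotted lines. The range shown leaves out 39 genes; Dusp6 lies in the left tail at −1.52 and Dusp8 and Dusp2 in the right tail at 1.65 and 1.72.

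Against input, 4 of the 9 members exceeded 2-fold over the gene span in untreated cells (Dusp1, Dusp2, Dusp4 and Dusp6), where 39.3% of coding genes did. After LPS 5 of 9 did, with Dusp16 added, where 34.5% of coding genes did. A Ser5 peak within 1 kb of the 5′ end of the gene record was present for 7 of 9 members in each library, all but Dusp10 and Dusp14, where 48.1% of coding genes had one before LPS and 46.0% after it. With peaks of p at most 1e-10 the counts were 6 before LPS and 7 after it, and with the midpoint of the peak in the window 7 and 6. A position was counted as uniquely mappable when its exact sequence, at the tag length of each library, occurred once in mm9. Near the start between 98.0% and 100% of positions met this, except at the 5′ end of Dusp10 (81.7% to 88.9%). The study's alignment allowed mismatches, and near copies elsewhere were not counted. A limit from mappability is therefore not excluded, and the tags are shorter in the LPS library than in the untreated one.

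The nearest coding genes on either side were examined for the 9 members. Of these 18 neighbours 12 had at least 20 tags. Among them 1 was higher (Astl), where 5.27% of coding genes were over their spans, 2 were lower, where 10.6% were, and 9 were neither. The lower ones were Neurl1b, 59252 bp downstream of Dusp1, with 345 and 140 tags and a ratio of 0.495 (0.403 to 0.604), and Tada2a next to Dusp14, with 289 and 90 tags and a ratio of 0.380 (0.296 to 0.482). Poc1b, the upstream neighbour of Dusp6, had a ratio of 0.549 (0.483 to 0.623). The 5 kb past the end of Dusp14 overlap the gene Synrg, and the 33 and 6 tags there are not assigned to Dusp14.

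Among 14 atypical dual-specificity phosphatases, which act mostly on other substrates, none was higher over the span, where 5.27% of coding genes were. Of the same 14, 3 were lower, where 10.6% of coding genes were, 9 were neither and 2 had fewer than 20 tags. Their median ratio was 0.708. With so few genes, the lack of a higher one is not read as a trait of the list. The lower ones were Dusp23 at 0.315 (0.204 to 0.474), Dusp3 at 0.341 (0.292 to 0.396) and Dusp19 at 0.430 (0.324 to 0.565). The largest ratios were those of Dusp11 at 1.53 (1.32 to 1.77), Styx at 0.876 (0.641 to 1.19) and Dusp13 at 0.840 (0.674 to 1.04). No atypical phosphatase thus reached the ratio of Dusp1, Dusp2, Dusp8 or Dusp16.

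Of 30 genes of the MAP kinase cascade, 4 were higher over the span, where 5.27% of coding genes were, and 2 were lower, where 10.6% were. The other 24 were neither, and the median ratio of the list was 0.994. The higher ones were Mapkapk2, the kinase that p38 activates, with 1392 and 7261 tags and a ratio of 6.36 (6.00 to 6.74), the p38 kinase Mapk11 at 2.46 (1.71 to 3.59), the JNK activator Map2k4 at 2.34 (2.07 to 2.65) and Map3k5 at 2.31 (2.13 to 2.51). The smallest ratios were those of Map3k1 at 0.391 (0.348 to 0.438), Map3k14, the NF-kB-inducing kinase, at 0.473 (0.420 to 0.532) and Map3k4 at 0.528 (0.444 to 0.625).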

How the data were processed

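The deposited files give the mm9 position and strand of each aligned tag of the 3 libraries and, for each Ser5 library, the position of each peak and its score, which the authors made as minus 10*log10 of the MACS p-value. Per the study's methods, reads were trimmed at the 3′ end and aligned with Bowtie, keeping unique matches, and MACS ran on each Ser5 library against input, with no pooling. Tool versions and the settings for the input library are not given in the sources used here. Duplicate tags were kept (81.4% to 84.5% of tags had distinct positions). The tags are 45 (untreated), 30 (LPS) and 36 (input) bases long. The supplementary methods state the Ser5 lengths the other way round, and the LPS-response genes bear out the labels.

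5′ ends were counted per gene record (the longest where a symbol has several), within 1 kb of its 5′ end, past +1 kb, and in flanks of 5 kb. A called gene had at least 2-fold and 20 tags over the libraries compared, with 0 tags set to 0.5. Intervals were exact Poisson (counts), exact conditional (ratios, ratios of ratios) or Wilson (shares), at 95%. A floor of 3 tags for a count of 0, below the exact Poisson upper limit, is 0.394, 0.480 and 0.398 TPM in untreated, LPS and input. Samples were grouped by their titles.

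The members and gene lists were chosen with earlier results of these data known. All 9 members are named. From the atypical phosphatases and the MAP kinase cascade the 3 largest and 3 smallest span ratios with at least 20 tags are named, besides those called. Alternatives were scaling to tags outside peaks, a shift of each tag by 75 bp, removal of duplicate tags (1 per position and strand), minimums of 10 and 50 tags, 1.5-fold, 2-fold with an interval that leaves out 1, input subtraction, uniquely mappable positions, other annotated starts, and for peaks a p-value of at most 1e-10, a window of 500 bp and overlap by midpoint. The split of the start window and the joint scaling and duplicate alternative were added after seeing the data. Counting, calls and interval coverage were checked against simulated tags with known answers. Python 3.11.15, numpy 2.4.6, pandas 2.3.3, scipy 1.17.1, numba 0.67.0 and matplotlib 3.10.9 were used.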

Additional observations from a re-analysis of the deposited data

How the results depend on the processing

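No paired analysis was possible because each condition has 1 library. For the 9 members, 172 alternative ratios were computed, of which 161 stayed within the counting interval of the value given and 11 did not. Of these 11, only the first kb upstream of the Dusp1 start lay on the other side of 1. It was 0.933 (0.681 to 1.27), an interval that holds 1, against 1.51 for the whole start window. Dusp6 remained below 1 in all of them, between 0.0928 past +1 kb with input subtracted and 0.490 near the start with 1 tag per position and scaling to tags outside peaks. Its span ratio was 0.390 with 1 tag per position and 0.418 with that scaling added. Past +1 kb Dusp2 was 8.75 with input subtracted. The span ratio of Dusp5 was 1.56 with input subtracted, and that of Dusp4 was 0.816 with scaling outside peaks and 1 tag per position. Near the start, 4 members were higher at 1.5-fold and 1 with at least 50 tags. With scaling to tags outside peaks, 8 of 9 members exceeded 2 times input over the span after LPS, against 5 of 9 with all tags. That scaling raises the ratio to input of every gene. The share of coding genes was not recorded with it, so the count is not read as a trait of the members. At 1.5-fold, 1789 coding genes were higher and 3971 lower over spans, 946 and 3289 near the start, and 1947 and 3872 past +1 kb. All other counts of members and genes stayed within 1.5 times. Depth limits Dusp8, Dusp14 and the 5′ end of Dusp10, with at most 31 tags near the start. With 1 library per condition, LPS cannot be told apart from any other difference between the cultures.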
